A study of Homo sapiens with 12 samples.

Results

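Carriers of amino acids and small peptides were followed in enterocytes, the absorptive cells of the gut lining, derived from RPChiPS771, a line of human induced pluripotent stem cells. They were taken from the deposited table as every protein-coding gene named in solute carrier families 1, 3, 6, 7, 15, 36, 38 and 43, which gave 64 of its 58735 genes and 64 of 372 protein-coding SLC genes. From day 15 to day 23, cultures in a medium labelled M3 received 1 µM VD3 (the VD3 group), 100 µM VPA (the VPA group), both at those doses (the VD3VPA group), or neither (the Control group, labelled as without VD3 and with no mention of VPA). VD3 is vitamin D3, in a form the labels do not state, and VPA is taken here to be valproic acid, an inhibitor of histone deacetylases. Each group had 3 libraries of poly-A RNA, all 12 from the 1 cell line, and all groups shared the medium and the treatment days. The stated purpose was to learn how both compounds affect the differentiation of these enterocytes.

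An enterocyte takes up the products of protein digestion from the gut lumen through its apical brush border and releases amino acids to the blood through its basolateral membrane. Small peptides enter with protons, most neutral and acidic amino acids enter with sodium, and cationic amino acids and cystine enter in exchange for neutral ones. On the basolateral side, exchangers and uniporters pass the amino acids on, and several of the light chains of family SLC7 reach the membrane only when joined to a heavy chain of family SLC3. Other members of these families carry glutamate, GABA, serotonin, taurine, betaine or creatine, or sit in the lysosome. Amino acid shortage is known to switch on some carrier genes through the transcription factor ATF4, which binds a composite element called CARE.

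Promoters of 48 of the 64 genes were found in RefSeq (build GRCh38.p14) as 70 windows of 300 bases, since several genes have more than 1 start. The CARE letters TGATGNAA, read on both strands, occurred in 7 of these 70 windows (10%) and in 3.62% of all 35116 windows. The following stretches of 30 bases hold the match in the 6 carriers that were expressed here, with the match in capitals, written on the gene's own strand, and they are shown because the changes of these 6 carriers are set beside the amino acid response genes at the end.
SLC1A3: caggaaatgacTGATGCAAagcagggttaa
SLC1A4: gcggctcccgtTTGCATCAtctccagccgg
SLC1A5: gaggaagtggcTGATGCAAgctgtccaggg
SLC38A1: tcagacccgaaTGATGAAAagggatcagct
SLC3A2: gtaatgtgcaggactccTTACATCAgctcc
SLC7A1: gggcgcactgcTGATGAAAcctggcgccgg
In SLC1A4 and SLC3A2 the letters lie on the opposite strand, so their reverse complement is what the capitals show. The stretches lie at chr5:36596357-36596386 (SLC1A3), chr2:64989381-64989410 (SLC1A4), chr19:46784893-46784922 (SLC1A5), chr12:46266502-46266531 (SLC38A1), chr11:62881719-62881748 (SLC3A2) and chr13:29595663-29595692 (SLC7A1). By the deposited gene coordinates, the stretches of SLC1A4, SLC1A5, SLC38A1 and SLC3A2 lie inside the gene, at alternative starts. That of SLC1A3 lies upstream of the gene, and only that of SLC7A1 spans the gene's own start. SLC1A3 and SLC1A4 are read from the plus strand, as is SLC3A2, and the other 3 from the minus strand.

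Letters tied to other factors were not more common in the carriers' windows than elsewhere. TGACNNNGC, for the antioxidant factor NRF2, was in 11.4% of them and in 13.3% of all windows. TATAAA, the TATA box, was in 7.14% and 11.5%, and TTTATNG, for the intestinal factor CDX2, was in 5.71% and 9.73%. The letters CAAAGTCCA, for HNF4, were in none of the 70 windows and in 0.384% of all windows. The HNF1 motif and the direct repeat read by the vitamin D receptor were likewise in none, and in 0.111% and 0.635% of all windows. Letters this rare would mostly be absent from 70 windows in any case, so their absence is not read as a result about the carriers. The 16 carriers without a window were not searched for any of these letters. Among them are SLC7A4, SLC38A3 and SLC6A12, which rose most with VD3 on the log2 scale below, and SLC7A11. A match is a string of letters and no measured binding, and promoters further from the start were not used here.

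The 250 bases before the start are given for SLC43A2, SLC7A9 and SLC6A19, 3 carriers whose mean levels below were highest with VPA alone and lowest with both compounds. They were read as chr17:1628835-1629084 (SLC43A2, minus strand), chr19:32869768-32870017 (SLC7A9, minus strand) and chr5:1201345-1201594 (SLC6A19, plus strand), with capitals where the TATA box and the CDX2 letters overlap.
SLC43A2: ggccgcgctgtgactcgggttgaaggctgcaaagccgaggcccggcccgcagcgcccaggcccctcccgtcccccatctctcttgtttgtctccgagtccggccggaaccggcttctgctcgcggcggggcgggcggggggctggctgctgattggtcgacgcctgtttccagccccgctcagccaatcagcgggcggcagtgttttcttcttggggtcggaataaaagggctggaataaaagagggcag
SLC7A9: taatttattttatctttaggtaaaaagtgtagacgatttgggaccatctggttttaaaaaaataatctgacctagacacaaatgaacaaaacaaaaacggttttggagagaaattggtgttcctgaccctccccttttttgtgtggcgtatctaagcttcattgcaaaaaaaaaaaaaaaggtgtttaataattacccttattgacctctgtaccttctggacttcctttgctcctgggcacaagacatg
SLC6A19: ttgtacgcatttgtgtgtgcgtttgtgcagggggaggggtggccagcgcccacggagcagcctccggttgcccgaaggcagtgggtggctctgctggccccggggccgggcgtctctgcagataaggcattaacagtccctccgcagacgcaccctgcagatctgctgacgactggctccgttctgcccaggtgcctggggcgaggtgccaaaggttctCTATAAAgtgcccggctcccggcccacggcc
The 3 printed stretches differ in base content: that before SLC43A2 holds 23 CpG pairs, that before SLC6A19 holds 17 and that before SLC7A9 holds 3. SLC43A2 has other RefSeq starts, not printed here, where the 250 bases hold 37 and 10 CpG pairs. In SLC43A2 and SLC7A9 none of the 7 sets of letters was found in the bases printed.

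Depth ran from 32160289 to 43998467 fragments per library, summed over genes after recovering whole fragments from the table. Levels are in FPKM (fragments relative to gene length and to library size), given per library in the order of replicates 1, 2 and 3 or as mean ± SD over 3 libraries. Log2 fold changes and their standard errors (SE) were computed from log2(FPKM + 1), so the change of a scarce carrier is understated, and a change counted as called when its adjusted p was under 0.05 in limma. No label tells whether replicates were grown apart, and the p-values therefore reflect the spread among these 12 libraries alone, which may be technical. In bulk RNA, fewer cells of a type and less RNA per cell cannot be told apart. All 12 enterocyte markers were expressed, and their summed level was 18654 to 22072 FPKM with VD3, 18662 to 19987 FPKM with VPA, 19427 to 21373 FPKM with both and 7480 to 8825 FPKM in Control. Most of that sum was APOA1, an apolipoprotein that liver also makes, and the other 11 summed to 1752 to 1822 FPKM with VD3, 1496 to 1604 FPKM with VPA, 1898 to 2029 FPKM with both and 1199 to 1344 FPKM in Control. These 11 were not checked for expression in liver. APOB, the most abundant of them, had 877 ± 44.3 FPKM with VPA and 437 ± 17.4 FPKM in Control. FABP1, the next, had 239 ± 54.1 and 421 ± 51.5 FPKM. SI reached 1 FPKM only in Control, at 1.05 to 1.21 FPKM, and stayed at or under 0.321 FPKM in all treated libraries. ALPI, LCT and FABP2 instead rose with VD3 and with both against Control. Mean ALPI was 218 FPKM with VD3, 12.98 FPKM with VPA, 314 FPKM with both and 9.87 FPKM in Control. In the same order of groups, LCT had 93.3, 7.87, 152 and 4.64 FPKM and FABP2 had 22.6, 3.31, 51.1 and 2.64 FPKM. Of the 12, 5 rose and 3 fell with VD3, 5 rose and 2 fell with VPA, and 6 rose and 3 fell with both, against Control. Of all genes tested, 62.5%, 52.7% and 64.2% were called in these comparisons. Of 10 hepatocyte markers 9 were expressed, led by the fetal liver protein AFP, with summed levels of 32806 to 41639 FPKM across the groups. No marker of pluripotent cells passed the filter. The part of other cell types in the results on carriers was not tested.

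Of the 64 carriers, 37 reached at least 1 FPKM in at least 3 libraries and were tested. The other 27 were not, and 19 of these stayed under 0.1 FPKM in every library, 3 of them (SLC38A8, SLC6A15 and SLC1A6) with no fragment at all. Among tested carriers, SLC7A11 passed only through Control, SLC36A2 only through VPA, and SLC6A12 would have failed without the VD3VPA libraries, with 1 other library at 1 FPKM. Each had to stand high in that group, so its differences from that group are given as values with no test, although the counts below include them. Averaged over all libraries, 13 carriers stood at 10 FPKM or more and 4 at 50 FPKM or more. The 6 most abundant, SLC7A7, SLC3A2, SLC1A1, SLC15A1, SLC7A8 and SLC7A5, together held 65.1% to 76.5% of the summed FPKM of all carriers in each library. The sum over all 64 was 608 ± 12.6 FPKM with VD3, 1023 ± 30.3 FPKM with VPA, 558 ± 12.5 FPKM with both and 658 ± 24.3 FPKM in Control. By role, the basolateral and system L carriers held the most, at 255 ± 6.84 FPKM with VD3, 613 ± 23.2 FPKM with VPA, 222 ± 5.52 FPKM with both and 348 ± 25.9 FPKM in Control. The apical amino acid carriers summed to 128 ± 4.29, 156 ± 6.77, 129 ± 2.25 and 114 ± 4.84 FPKM in the same order of groups.

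**Figure D1:**
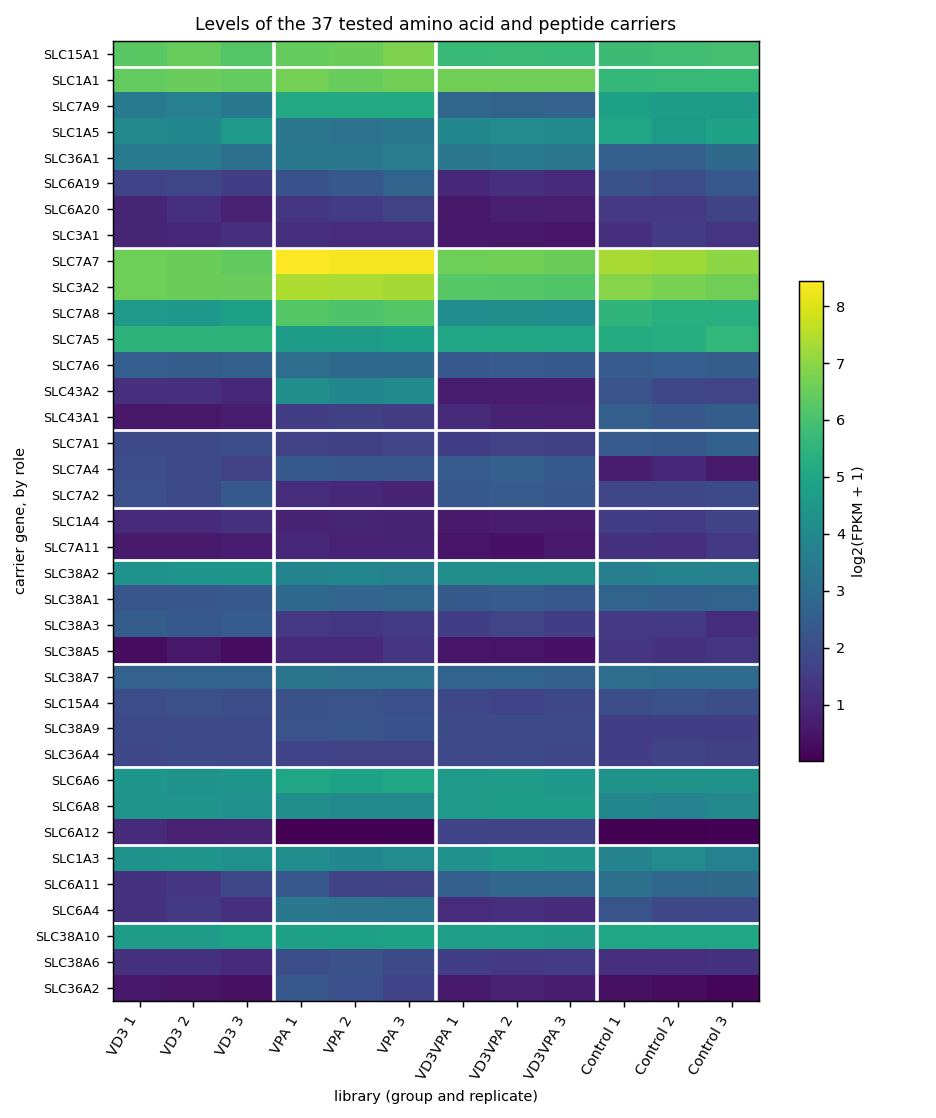
Heat map of the 37 tested carriers (rows, ordered by role, with white lines between roles) in the 12 libraries (columns, in the groups VD3, VPA, VD3VPA and Control), where colour gives the level as log2(FPKM + 1). SLC7A7 is the brightest row, with means of 329 FPKM in the VPA group and 147 FPKM in Control, and SLC6A12 is dark in the VPA and Control columns.

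A large share of all 12578 tested genes was called in each comparison, and the carriers are read against that share. With VD3 against Control, 11 of 37 carriers rose and 19 fell, 81.1% in all, where 62.5% of all genes tested were called (31.3% higher and 31.2% lower). With VPA against Control, 17 rose and 9 fell, 70.3% in all, where 52.7% of all genes were called (29.6% higher and 23.1% lower). With both compounds against Control, 14 rose and 20 fell, 91.9% in all, where 64.2% of all genes were called (31.1% higher and 33.1% lower). These 3 comparisons share the same Control libraries. The median log2 fold change over the 37 carriers was -0.22 with VD3, 0.20 with VPA and -0.29 with both, and the medians over all genes were 0.00, 0.01 and -0.01. At a log2 fold change of 1 or more in size, 2 carriers rose and 3 fell with VD3, 5 rose and 2 fell with VPA, and 2 rose and 5 fell with both. The share of all genes at that size was not computed, so these counts are not read against it.

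Against VD3 alone, 8 carriers were higher with both compounds and 14 lower, with 34.7% of all genes called (17.5% higher and 17.2% lower). The count of higher carriers was 5 when VD3VPA replicate 1 was left out. Against VPA alone, 9 were higher with both compounds and 23 lower, with 63.3% of all genes called (28.6% higher and 34.7% lower), and the median log2 fold change was -0.37 over the carriers and -0.03 over all genes. VD3 was thus compared with its absence in separate libraries, once without VPA and once with it. Of the 19 carriers that fell with VD3 alone and the 23 that fell when VD3 was added to VPA, 16 were in both lists, and of the 11 and 9 that rose, 5 were in both. These overlaps were not computed over all genes, so they are not read as particular to the carriers. SLC1A5 and SLC6A11 fell with VD3 alone and rose when VD3 was added to VPA, while SLC15A1 and SLC38A9 rose in the one and fell in the other. In 13 of the 37 tested carriers (35.1%) all 3 VPA libraries lay above all other libraries, as they did in 15.9% of all genes tested. In 17 carriers (45.9%) the VPA mean was the highest of the 4 groups, against 28.9% of all genes. The VD3VPA mean was the lowest in 16 (43.2%), against 25.3% of all genes.

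**Figure D2:**
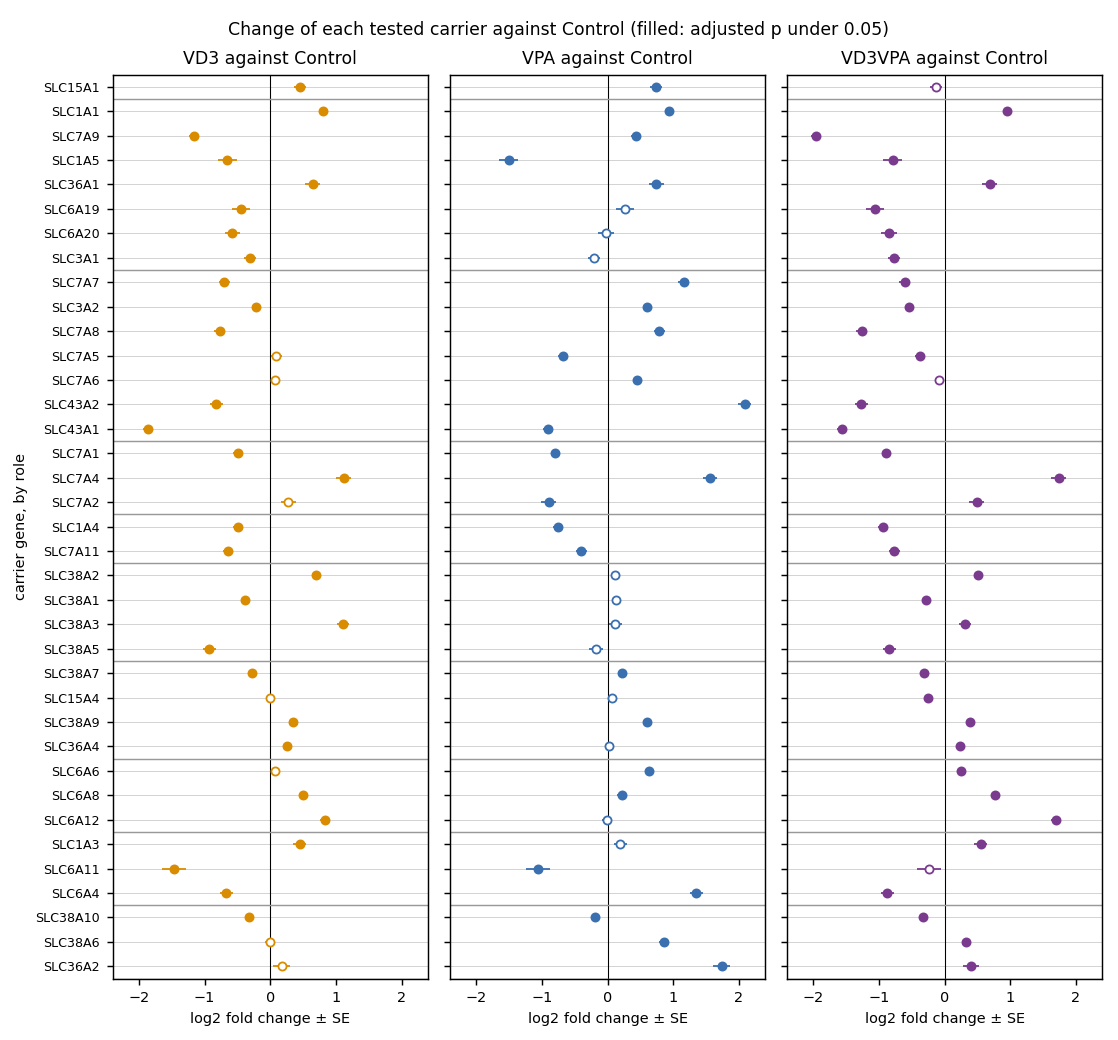
Log2 fold changes of the 37 tested carriers against Control for VD3, VPA and VD3VPA, on the log2(FPKM + 1) scale with bars of 1 SE, grouped by role and with filled points for calls. SLC43A2 reaches 2.09 with VPA and -1.27 with both compounds, and SLC43A1 lies below 0 in all 3.

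Among the peptide carriers outside the lysosome only SLC15A1, the proton-coupled carrier of dipeptides and tripeptides in the intestinal brush border, was expressed. SLC15A1 (chr13:98683801-98752654, minus strand, GRCh38) had 77.9, 89.3 and 72.4 FPKM with VD3 and 87.1, 92.9 and 111 FPKM with VPA. It had 51.96, 53.2 and 51.8 FPKM with both compounds, against 54.03, 57.5 and 61.8 FPKM in Control. The VD3 and VPA libraries all lay above Control, and the VD3VPA libraries all lay below it. SLC15A1 rose 1.38-fold with VD3 (log2 fold change 0.46, SE 0.0932, adjusted p = 0.00118) and 1.68-fold with VPA (log2 fold change 0.73, SE 0.0932, adjusted p = 5.7e-05). With both compounds its difference from Control did not pass the test (log2 fold change -0.14, SE 0.0932, adjusted p = 0.216). It was lower with both than with VD3 alone (log2 fold change -0.60, SE 0.0932, adjusted p = 0.000638) or VPA alone (log2 fold change -0.87, SE 0.0932, adjusted p = 7.57e-06). SLC15A2, the renal high-affinity peptide carrier, reached no more than 0.0551 FPKM in any library.

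The apical amino acid carriers held 7 tested members of 9, and they divided. With VD3 2 rose and 5 fell, with VPA 3 rose and 1 fell, and with both compounds 2 rose and 5 fell, all against Control (62.5%, 52.7% and 64.2% of all genes called). SLC1A1, which brings in glutamate and aspartate with sodium, was the most abundant. SLC1A1 had 85.05, 90.9 and 83.9 FPKM with VD3 and 102, 89.5 and 96.4 FPKM with VPA. It had 96.02, 98.02 and 96.1 FPKM with both compounds, against 48.6, 50.04 and 49.8 FPKM in Control. All 9 treated libraries lay above all Control libraries. It rose 1.75-fold with VD3 (log2 fold change 0.79, SE 0.0497, adjusted p = 1.24e-07), 1.94-fold with VPA (log2 fold change 0.94, SE 0.0497, adjusted p = 1.68e-07) and 1.95-fold with both (log2 fold change 0.95, SE 0.0497, adjusted p = 2.11e-08). SLC36A1, a proton-coupled carrier of glycine, alanine and proline, had 9.99, 10.4 and 7.56 FPKM with VD3 and 9.48, 9.505 and 10.8 FPKM with VPA. It had 9.2002, 10.1 and 9.15 FPKM with both compounds, against 5.02, 5.08 and 6.62 FPKM in Control. It also rose with VD3 (log2 fold change 0.65, SE 0.115, adjusted p = 0.000432), with VPA (log2 fold change 0.74, SE 0.115, adjusted p = 0.000243) and with both (log2 fold change 0.68, SE 0.115, adjusted p = 0.0002703), without overlap with Control.

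SLC7A9 is the light chain of the brush border exchanger that takes up cystine, arginine and lysine, and it moved in opposite directions with the 2 compounds. SLC7A9 (chr19:32830509-32869766, minus strand, GRCh38) had 10.1, 11.8 and 9.72 FPKM with VD3 and 33.3, 33.8 and 34.02 FPKM with VPA. It had 5.98, 5.501 and 5.42 FPKM with both compounds, against 26.8, 23.7 and 24.1 FPKM in Control. No library of any group overlapped those of another. It fell with VD3 (log2 fold change -1.17, SE 0.0678, adjusted p = 7.33e-08) and rose with VPA (log2 fold change 0.43, SE 0.0678, adjusted p = 0.000293). With both compounds it was 4.41-fold lower than in Control (log2 fold change -1.96, SE 0.0678, adjusted p = 8.4e-10), lower than with VD3 alone (log2 fold change -0.80, SE 0.0678, adjusted p = 1.34e-05), and 5.98-fold lower than with VPA alone (log2 fold change -2.39, SE 0.0678, adjusted p = 2.04e-10). Its heavy chain partner SLC3A1 was scarce, at 1.03 ± 0.214 FPKM with VD3, 1.17 ± 0.0854 FPKM with VPA, 0.464 ± 0.0409 FPKM with both and 1.51 ± 0.268 FPKM in Control. SLC3A1 was lower with both compounds than in Control (log2 fold change -0.77, SE 0.0907, adjusted p = 1.59e-05) and lower with VD3, where the groups overlapped and the call was lost without Control replicate 2 (adjusted p = 0.0566) or VD3 replicate 1 (adjusted p = 0.0534). Exons of PREPL on the opposite strand cover 29.4% of the SLC3A1 length, and the strand setting of the counting is not given in the sources used here, so its values are uncertain.

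SLC6A19, the main sodium-coupled carrier of neutral amino acids in the brush border, had 2.26, 2.53 and 1.93 FPKM with VD3 and 3.399, 4.02 and 5.71 FPKM with VPA. It had 0.991, 1.23 and 1.09 FPKM with both compounds, against 3.27, 3.04 and 3.95 FPKM in Control. The VD3VPA libraries were the lowest 3 of the 12. It was lower with both compounds than in Control (log2 fold change -1.07, SE 0.135, adjusted p = 2.93e-05) and than with VPA (log2 fold change -1.33, SE 0.135, adjusted p = 4.96e-06). Its fall with VD3 (log2 fold change -0.45, SE 0.135, adjusted p = 0.0132) was not called without Control replicate 3 (adjusted p = 0.0541) or VD3 replicate 3 (adjusted p = 0.0522), and its difference with VPA did not pass (log2 fold change 0.27, SE 0.135, adjusted p = 0.122), except without VPA replicate 1 (adjusted p = 0.0262). SLC6A20, which carries proline and other imino acids, had 0.9402 ± 0.268 FPKM with VD3, 1.85 ± 0.2802 FPKM with VPA, 0.596 ± 0.0922 FPKM with both and 1.89 ± 0.396 FPKM in Control. It was lower with VD3 (log2 fold change -0.58, SE 0.118, adjusted p = 0.00124) and with both compounds (log2 fold change -0.85, SE 0.118, adjusted p = 6.11e-05) than in Control. SLC6A14, a broad carrier of neutral and cationic amino acids, stayed at or under 0.0415 FPKM, and SLC6A18, a relative of SLC6A19 that lies 238 bases from it on chromosome 5, stayed at or under 0.0843 FPKM.

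SLC1A5, a sodium-dependent exchanger best known for glutamine, was lower in every treated group. SLC1A5 had 14.7, 14.5 and 22.7 FPKM with VD3 and 9.16, 8.24 and 9.42 FPKM with VPA. It had 14.5, 15.9 and 15.5 FPKM with both compounds, against 30.4, 23.3 and 28.4 FPKM in Control. The VPA libraries were the lowest and the Control libraries the highest, with VD3 replicate 3 close to the lowest Control library. It fell 1.58-fold with VD3 (log2 fold change -0.65, SE 0.145, adjusted p = 0.00211), 3.06-fold with VPA (log2 fold change -1.51, SE 0.145, adjusted p = 7.46e-06) and 1.79-fold with both (log2 fold change -0.79, SE 0.145, adjusted p = 0.0005199). With both compounds it was higher than with VPA alone (log2 fold change 0.71, SE 0.145, adjusted p = 0.00112). An antisense gene at 0.337 FPKM on average shares 23.4% of the SLC1A5 length.

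All 7 basolateral and system L carriers were tested. With VPA 5 rose and 2 fell, with VD3 none rose and 5 fell, and with both none rose and 6 fell, against Control, where 52.7%, 62.5% and 64.2% of all genes were called. When VD3 was added to VPA, 6 of the 7 fell and 1 rose (63.3% of all genes were called). SLC7A7 is the light chain that releases cationic amino acids to the blood in exchange for neutral ones, and its loss causes lysinuric protein intolerance. SLC7A7 (chr14:22773222-22829820, minus strand, GRCh38) had 94.7, 93.05 and 81.7 FPKM with VD3 and 347, 319 and 322 FPKM with VPA. It had 94.9, 99.2 and 93.5 FPKM with both compounds, against 162, 151 and 128 FPKM in Control. The VPA libraries lay far above all others, Control came next, and the VD3 and VD3VPA libraries overlapped. It rose 2.24-fold with VPA (log2 fold change 1.16, SE 0.0824, adjusted p = 8.32e-07) and fell 1.64-fold with VD3 (log2 fold change -0.70, SE 0.0824, adjusted p = 1.81e-05) and 1.53-fold with both (log2 fold change -0.61, SE 0.0824, adjusted p = 5.07e-05). Against VPA alone the combination was 3.43-fold lower (log2 fold change -1.77, SE 0.0824, adjusted p = 8.47e-09), and its difference from VD3 alone did not pass (log2 fold change 0.10, SE 0.0824, adjusted p = 0.405).

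SLC7A8, a light chain that exchanges neutral amino acids at the basolateral membrane, lies 295475 bases from SLC7A7 on chromosome 14 (chr14:23125295-23183674, minus strand). SLC7A8 had 22.4, 21.7 and 27.1 FPKM with VD3 and 74.2, 66.7 and 74.02 FPKM with VPA. It had 16.1, 17.2 and 16.2 FPKM with both compounds, against 45.2, 39.7 and 38.6 FPKM in Control. The 4 groups did not overlap, with VPA highest and VD3VPA lowest. It rose with VPA (log2 fold change 0.79, SE 0.0836, adjusted p = 1.51e-05) and fell with VD3 (log2 fold change -0.77, SE 0.0836, adjusted p = 9.33e-06) and with both (log2 fold change -1.26, SE 0.0836, adjusted p = 1.45e-07), and the combination was 4.34-fold lower than VPA alone (log2 fold change -2.05, SE 0.0836, adjusted p = 3.16e-09). SLC3A2 is the heavy chain that brings SLC7A7, SLC7A8, SLC7A6, SLC7A5 and SLC7A11 to the membrane. SLC3A2 had 94.8, 91.7 and 89.95 FPKM with VD3 and 167, 163 and 159 FPKM with VPA. It had 74.5, 73.8 and 70.6 FPKM with both compounds, against 119, 106 and 98.2 FPKM in Control. The 4 groups did not overlap here either. It rose 1.52-fold with VPA (log2 fold change 0.60, SE 0.0606, adjusted p = 1.04e-05) and fell 1.17-fold with VD3 (log2 fold change -0.22, SE 0.0606, adjusted p = 0.00858) and 1.47-fold with both (log2 fold change -0.55, SE 0.0606, adjusted p = 9.21e-06).

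SLC43A2, a uniporter of branched-chain amino acids, phenylalanine and methionine in the basolateral membrane, had the largest rise with VPA on the log2(FPKM + 1) scale. By the ratio of group mean FPKM to Control, the scarcer SLC36A2 and SLC7A4 stood higher. SLC43A2 (chr17:1569267-1628886, minus strand, GRCh38) had 1.26, 1.297 and 0.952 FPKM with VD3 and 16.9, 14.02 and 15.03 FPKM with VPA. It had 0.573, 0.577 and 0.612 FPKM with both compounds, against 3.49, 2.62 and 2.47 FPKM in Control. The 4 groups did not overlap, and the VD3VPA libraries were the lowest. It rose 5.36-fold with VPA (log2 fold change 2.09, SE 0.0996, adjusted p = 9.17e-08) and fell 2.45-fold with VD3 (log2 fold change -0.83, SE 0.0996, adjusted p = 2.27e-05) and 4.87-fold with both (log2 fold change -1.27, SE 0.0996, adjusted p = 5.61e-07). The combination was 26.1-fold lower than VPA alone (log2 fold change -3.36, SE 0.0996, adjusted p = 2.98e-10) and 1.99-fold lower than VD3 alone (log2 fold change -0.45, SE 0.0996, adjusted p = 0.00512). Its relative SLC43A1, a uniporter of similar substrates, was instead highest in Control. SLC43A1 had 0.493, 0.477 and 0.593 FPKM with VD3 and 1.93, 2.05 and 1.87 FPKM with VPA. It had 1.07, 0.829 and 0.716 FPKM with both compounds, against 4.98, 3.97 and 4.67 FPKM in Control. All Control libraries lay above all treated libraries, and it fell 8.72-fold with VD3 (log2 fold change -1.86, SE 0.0825, adjusted p = 1.03e-08), 2.33-fold with VPA (log2 fold change -0.91, SE 0.0825, adjusted p = 4.92e-06) and 5.20-fold with both (log2 fold change -1.57, SE 0.0825, adjusted p = 2.32e-08). It was higher with both than with VD3 alone (log2 fold change 0.30, SE 0.0825, adjusted p = 0.0166), a call lost without VD3 replicate 2 (adjusted p = 0.0546) or VD3VPA replicate 1 (adjusted p = 0.0682). The summed level of 6 goblet and gastric markers, 2 of them expressed, was also highest in Control, at 47.8 to 62.9 FPKM with VD3, 34.6 to 44.4 FPKM with VPA, 25.2 to 29.1 FPKM with both and 122 to 143 FPKM in Control. The part of such cells in the higher Control values of carriers was not tested.

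SLC7A5, the light chain of the exchanger for large neutral amino acids in growing cells, did not follow SLC7A7 and SLC7A8. SLC7A5 had 43.3, 43.3 and 42.8 FPKM with VD3 and 24.8, 23.8 and 26.3 FPKM with VPA. It had 30.5, 31.5 and 30.6 FPKM with both compounds, against 37.04, 37.5 and 47.5 FPKM in Control. The VPA libraries were the lowest and the VD3 and Control libraries overlapped. It fell with VPA (log2 fold change -0.67, SE 0.0784, adjusted p = 3.06e-05) and with both (log2 fold change -0.38, SE 0.0784, adjusted p = 0.00122), and its difference with VD3 did not pass (log2 fold change 0.09, SE 0.0784, adjusted p = 0.323) unless Control replicate 3 was left out (adjusted p = 0.00245). A pseudogene copy, SLC7A5P1, stood at 1.12 FPKM on average, so reads could be split between the copies. SLC7A6, a light chain like SLC7A7 found in many tissues, had 4.88 ± 0.213 FPKM with VD3, 6.68 ± 0.419 FPKM with VPA, 4.25 ± 0.211 FPKM with both and 4.597 ± 0.179 FPKM in Control and rose with VPA (log2 fold change 0.45, SE 0.0515, adjusted p = 2.48e-05). Exons of SLC7A6OS cover 44.4% of the SLC7A6 length.

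**Figure D3:**
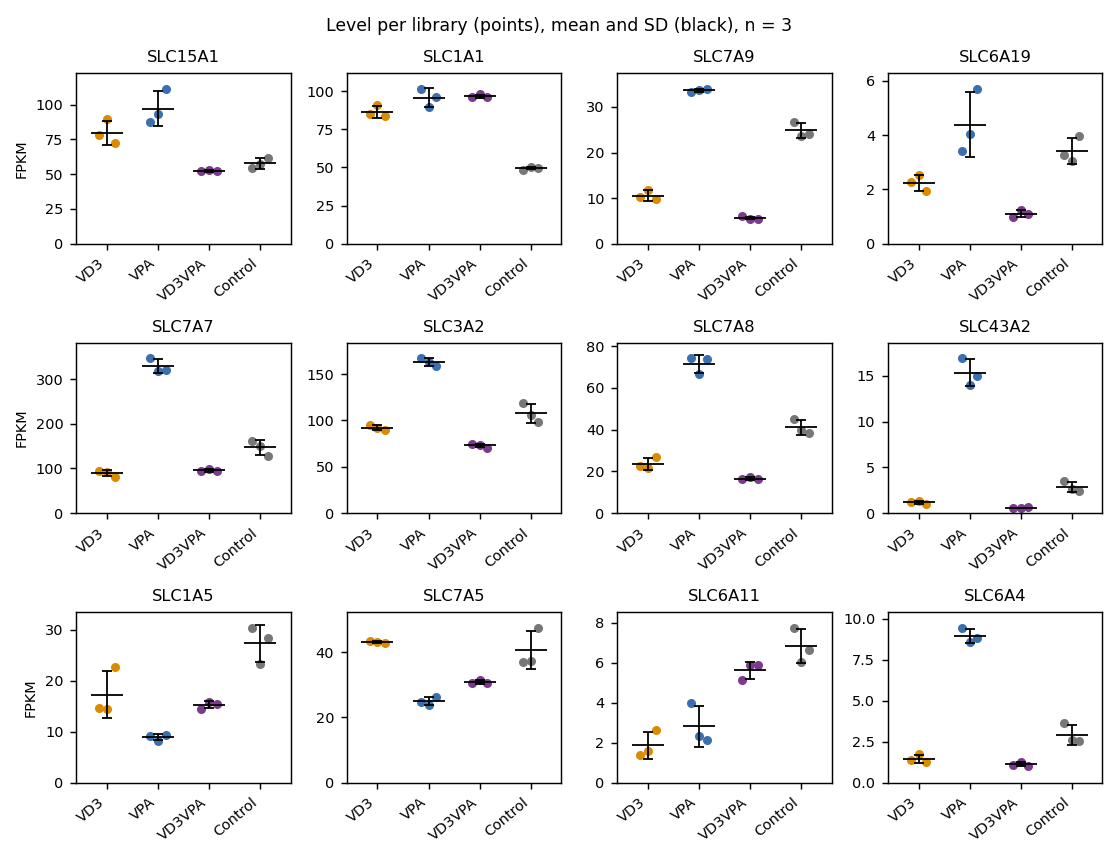
FPKM in each library for selected carriers, with 1 point per library, a black line at the group mean with bars of 1 SD, and groups from left to right as VD3, VPA, VD3VPA and Control. SLC43A2 stands at 14.0 to 16.9 FPKM in the VPA libraries and at or below 3.49 FPKM in all others, while SLC6A11 is lowest with VD3 or VPA alone.

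Markers of the kidney tubule were checked beside these carriers, as SLC7A7, SLC7A8, SLC7A9 and SLC43A2 are also expressed in its proximal part. Of 6 markers 2 passed the filter, the endocytic receptors LRP2 and CUBN, which the small intestine can also express, and the summed level of all 6 was 3.73 to 5.86 FPKM with VD3, 25.7 to 30.4 FPKM with VPA, 7.13 to 8.07 FPKM with both and 6.97 to 8.41 FPKM in Control. The list is not limited to the proximal part. Its other markers SLC34A1, PAX8 and SLC12A1 stayed at or under 0.155 FPKM, and UMOD was at 0 in every library. Of 6 mesenchymal markers 3 were expressed, with summed levels of 13.9 to 14.8 FPKM with VD3, 18.3 to 21.7 FPKM with VPA, 15.9 to 36.7 FPKM with both and 10.4 to 13.7 FPKM in Control. The part of cells with LRP2, CUBN or mesenchymal markers in the rise of the carriers with VPA was not tested.

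Of the cationic carriers 3 of 4 were tested. SLC7A1, the ubiquitous carrier of arginine, lysine and ornithine, was lower in all treated groups than in Control, with 2.99 ± 0.1498 FPKM with VD3, 2.25 ± 0.1797 FPKM with VPA, 2.04 ± 0.0739 FPKM with both and 4.64 ± 0.4997 FPKM in Control. Its log2 fold changes were -0.50 with VD3, -0.79 with VPA and -0.89 with both, all called. SLC7A2, a cationic carrier prominent in liver, had 3.23, 2.75 and 4.35 FPKM with VD3 and 1.16, 0.971 and 0.766 FPKM with VPA. It had 4.103, 4.38 and 3.84 FPKM with both compounds, against 2.53, 2.63 and 2.76 FPKM in Control. The VPA libraries lay below all others, and the VD3 libraries overlapped Control. SLC7A2 fell 2.73-fold with VPA (log2 fold change -0.89, SE 0.113, adjusted p = 5.43e-05) and was 4.26-fold higher with both compounds than with VPA alone (log2 fold change 1.38, SE 0.113, adjusted p = 7.84e-07). With both it was also higher than in Control (log2 fold change 0.49, SE 0.113, adjusted p = 0.002496). Its difference with VD3 alone did not pass (log2 fold change 0.27, SE 0.113, adjusted p = 0.0536). It passed without VD3 replicate 2 (adjusted p = 0.00924) or VPA replicate 3 (adjusted p = 0.0478), and with all libraries in voom on recovered fragments (adjusted p = 0.0292). Of 9 expressed hepatocyte markers, 1 rose and 5 fell with VPA, and 6 rose and 2 fell when VD3 was added to VPA, where 52.7% and 63.3% of all genes were called. The part of hepatocyte-type cells in the values of SLC7A2 was not tested. SLC7A4, a relative for which no transport activity is established, had 3.14, 2.64 and 2.17 FPKM with VD3 and 4.35, 3.803 and 3.701 FPKM with VPA. It had 4.36, 5.11 and 4.25 FPKM with both compounds, against 0.582, 0.932 and 0.536 FPKM in Control. All treated libraries lay above Control, and it rose 3.88-fold with VD3 (log2 fold change 1.12, SE 0.111, adjusted p = 4.72e-06), 5.78-fold with VPA (log2 fold change 1.56, SE 0.111, adjusted p = 8.33e-07) and 6.69-fold with both (log2 fold change 1.73, SE 0.111, adjusted p = 1.11e-07).

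Among the exchangers of cystine and small neutral amino acids, both tested members were highest in Control. SLC7A11, the cystine and glutamate exchanger that feeds glutathione synthesis, had 0.5598 ± 0.0276 FPKM with VD3, 0.849 ± 0.0931 FPKM with VPA, 0.433 ± 0.106 FPKM with both and 1.45 ± 0.233 FPKM in Control. Its log2 differences from Control were -0.65 with VD3, -0.40 with VPA and -0.77 with both, and as it passed the filter only through Control it had to stand higher there. SLC1A4, an exchanger of alanine, serine, cysteine and threonine, had 1.18 ± 0.183 FPKM with VD3, 0.803 ± 0.0592 FPKM with VPA, 0.586 ± 0.0359 FPKM with both and 2.05 ± 0.243 FPKM in Control. It fell with VD3 (log2 fold change -0.49, SE 0.0753, adjusted p = 0.000163), with VPA (log2 fold change -0.76, SE 0.0753, adjusted p = 9.34e-06) and with both (log2 fold change -0.94, SE 0.0753, adjusted p = 6.7e-07). SLC7A10, an exchanger of small neutral amino acids and D-serine best known from brain, was not tested, and it averaged 0.148 ± 0.0566 FPKM with VD3, 0.65001 ± 0.0827 FPKM with VPA, 0.669 ± 0.337 FPKM with both and 0.0964 ± 0.0538 FPKM in Control.

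Systems A and N move glutamine and other small neutral amino acids with sodium, and 4 of 5 members were tested. Against Control, 2 rose and 2 fell with VD3, all 4 missed the threshold with VPA (adjusted p 0.0681 to 0.295), and 2 rose and 2 fell with both. The shares of all genes called were 62.5%, 52.7% and 64.2% in that order. SLC38A2, the system A carrier that adapts to amino acid supply, had 19.5, 19.9 and 20.3 FPKM with VD3 and 13.2, 13.6 and 12.01 FPKM with VPA. It had 17.2, 17.7 and 17.1 FPKM with both compounds, against 11.3, 12.7 and 11.8 FPKM in Control. The VD3 and VD3VPA libraries lay above all VPA and Control libraries. SLC38A2 rose with VD3 (log2 fold change 0.69, SE 0.0514, adjusted p = 4.68e-07) and with both (log2 fold change 0.50, SE 0.0514, adjusted p = 5.04e-06), and its difference with VPA did not pass (log2 fold change 0.11, SE 0.0514, adjusted p = 0.101) except without Control replicate 2 (adjusted p = 0.0360) or VPA replicate 3 (adjusted p = 0.0243). SLC38A3, a system N glutamine carrier of liver, kidney and brain, had 4.68, 4.002 and 4.55 FPKM with VD3 and 1.67, 1.62 and 1.88 FPKM with VPA. It had 1.96, 2.396 and 1.99 FPKM with both compounds, against 1.65, 1.73 and 1.16 FPKM in Control. It rose 2.91-fold with VD3 alone (log2 fold change 1.11, SE 0.0922, adjusted p = 1.14e-06), and with both compounds it was 2.08-fold lower than with VD3 (log2 fold change -0.80, SE 0.0922, adjusted p = 9.24e-05). Its rise with both against Control (log2 fold change 0.31, SE 0.0922, adjusted p = 0.0109) was not called without VD3VPA replicate 2 (adjusted p = 0.0502). SLC38A5, the other system N carrier here, had 0.225, 0.502 and 0.219 FPKM with VD3 and 1.06, 1.07 and 1.53 FPKM with VPA. It had 0.432, 0.397 and 0.338 FPKM with both compounds, against 1.55, 1.39 and 1.54 FPKM in Control. It fell 4.74-fold with VD3 (log2 fold change -0.93, SE 0.101, adjusted p = 9.65e-06) and 3.84-fold with both (log2 fold change -0.84, SE 0.101, adjusted p = 1.8e-05), and with VPA it did not pass (log2 fold change -0.18, SE 0.101, adjusted p = 0.166) except without VPA replicate 3 (adjusted p = 0.0379). SLC38A1, a system A carrier, had 3.92 ± 0.1904 FPKM with VD3, 6.05 ± 0.358 FPKM with VPA, 4.298 ± 0.225 FPKM with both and 5.46 ± 0.268 FPKM in Control and fell with VD3 (log2 fold change -0.39, SE 0.0532, adjusted p = 5.64e-05) and with both (log2 fold change -0.29, SE 0.0532, adjusted p = 0.000551).

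Of 6 carriers of lysosomes and other inner membranes 4 were tested. SLC38A9, which reports lysosomal arginine to the kinase complex mTORC1, had 2.75 ± 0.09997 FPKM with VD3, 3.4997 ± 0.137 FPKM with VPA, 2.87 ± 0.0754 FPKM with both and 1.96 ± 0.0616 FPKM in Control, and it rose with VD3 (log2 fold change 0.34, SE 0.0424, adjusted p = 2.72e-05), with VPA (log2 fold change 0.61, SE 0.0424, adjusted p = 7.82e-07) and with both (log2 fold change 0.39, SE 0.0424, adjusted p = 8.68e-06). SLC38A7, which releases glutamine and asparagine from the lysosome, had 5.53 ± 0.101 FPKM with VD3, 8.28 ± 0.261 FPKM with VPA, 5.42 ± 0.289 FPKM with both and 6.95 ± 0.262 FPKM in Control and rose with VPA (log2 fold change 0.22, SE 0.0441, adjusted p = 0.00136) but fell with VD3 (log2 fold change -0.28, SE 0.0441, adjusted p = 0.000163). SLC15A4, a lysosomal carrier of histidine and small peptides, had 3.16 ± 0.111 FPKM with VD3, 3.36 ± 0.152 FPKM with VPA, 2.51 ± 0.199 FPKM with both and 3.18 ± 0.152 FPKM in Control, and SLC36A4, an intracellular carrier of proline and tryptophan, had 2.71 ± 0.193 FPKM with VD3, 2.16 ± 0.0746 FPKM with VPA, 2.66 ± 0.0946 FPKM with both and 2.11 ± 0.216 FPKM in Control. SLC15A4 was lower with both compounds (log2 fold change -0.25, SE 0.0524, adjusted p = 0.00125) and SLC36A4 higher with both (log2 fold change 0.24, SE 0.0582, adjusted p = 0.003502) than in Control.

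The osmolyte and creatine carriers rose wherever they were called against Control. SLC6A6, the taurine carrier, had 20.52, 18.7 and 21.3 FPKM with VD3 and 30.8, 29.2 and 30.7 FPKM with VPA. It had 23.05, 23.8 and 21.9 FPKM with both compounds, against 19.3, 19.3 and 18.7 FPKM in Control. The VPA libraries lay above all others, and SLC6A6 rose 1.58-fold with VPA (log2 fold change 0.63, SE 0.0509, adjusted p = 1.92e-06) and less with both (log2 fold change 0.25, SE 0.0509, adjusted p = 0.00114). SLC6A8, the creatine carrier, had 19.6 ± 0.929 FPKM with VD3, 15.9 ± 1.05 FPKM with VPA, 23.8 ± 0.776 FPKM with both and 13.6 ± 1.18 FPKM in Control, and rose with VD3 (log2 fold change 0.50, SE 0.0647, adjusted p = 4.19e-05) and with both (log2 fold change 0.77, SE 0.0647, adjusted p = 1.02e-06). Its rise with VPA (log2 fold change 0.22, SE 0.0647, adjusted p = 0.01499) was not called without Control replicate 2 (adjusted p = 0.0591) or VPA replicate 1 (adjusted p = 0.0651), nor under own-total (adjusted p = 0.194) or quantile scaling (adjusted p = 0.142). A pseudogene copy, SLC6A10P, was listed at no more than 0.00694 FPKM, and reads shared by the copies leave the level of SLC6A8 uncertain. SLC6A12, the carrier of betaine and GABA, was near 0 without VD3. SLC6A12 (chr12:190077-214570, minus strand, GRCh38) had 1.05, 0.7204 and 0.776 FPKM with VD3 and 0.0159, 0.0124 and 0.0536 FPKM with VPA. It had 2.31, 2.36 and 2.34 FPKM with both compounds, against 0.0225, 0.019997 and 0.0577 FPKM in Control. These values rest on 462 fragments in the VD3 libraries, 15 in VPA, 1365 in VD3VPA and 22 in Control. The ratio of levels to Control was 24.9 with VD3 (exact 95% counting interval 16.3 to 40.2, which covers counting error only) and 69.5 with both. It rose with VD3 (log2 fold change 0.83, SE 0.0731, adjusted p = 1.73e-06), and the log2 difference of the VD3VPA group was 1.69 from Control and 0.86 from VD3, which the filter helped to fix. SLC6A13, 6051 bases away on chromosome 12, reached at most 0.207 FPKM and was not tested.

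Of 14 neurotransmitter carriers 3 were expressed. SLC6A4, the serotonin carrier, which enterocytes are known to use for serotonin released in the gut wall, had 1.36, 1.72 and 1.27 FPKM with VD3 and 9.44, 8.59 and 8.83 FPKM with VPA. It had 1.102, 1.24 and 1.02 FPKM with both compounds, against 3.61, 2.59 and 2.56 FPKM in Control. The VPA libraries lay far above all others, and the VD3VPA libraries were the lowest 3. SLC6A4 rose 3.07-fold with VPA (log2 fold change 1.35, SE 0.0991, adjusted p = 1.02e-06), and fell 2.01-fold with VD3 (log2 fold change -0.67, SE 0.0991, adjusted p = 0.0001104) and 2.60-fold with both (log2 fold change -0.88, SE 0.0991, adjusted p = 1.14e-05). SLC6A11, a GABA carrier best known from astrocytes, behaved otherwise. SLC6A11 (chr3:10816200-10940733, plus strand, GRCh38) had 1.402, 1.56 and 2.62 FPKM with VD3 and 3.996, 2.34 and 2.12 FPKM with VPA. It had 5.12, 5.88 and 5.89 FPKM with both compounds, against 7.76, 6.07 and 6.67 FPKM in Control. It fell 3.67-fold with VD3 (log2 fold change -1.47, SE 0.181, adjusted p = 2.72e-05) and 2.42-fold with VPA (log2 fold change -1.06, SE 0.181, adjusted p = 0.000491), while with both compounds its difference from Control did not pass (log2 fold change -0.24, SE 0.181, adjusted p = 0.273). With both it was 3.02-fold higher than with VD3 alone (log2 fold change 1.23, SE 0.181, adjusted p = 0.000441) and 1.99-fold higher than with VPA alone (log2 fold change 0.82, SE 0.181, adjusted p = 0.00189), and in neither case did the libraries overlap. Of 6 neural markers 1 was expressed, their summed level was 1.75 to 2.19 FPKM with VD3, 0.703 to 1.06 FPKM with VPA, 1.58 to 2.24 FPKM with both and 0.466 to 0.658 FPKM in Control, and ELAVL4 was at 0 in every library. SLC1A3, a glutamate carrier, had 18.9 ± 1.08 FPKM with VD3, 15.7 ± 1.11 FPKM with VPA, 20.3 ± 1.55 FPKM with both and 13.7 ± 2.12 FPKM in Control and rose with VD3 (log2 fold change 0.45, SE 0.0944, adjusted p = 0.001497) and with both (log2 fold change 0.55, SE 0.0944, adjusted p = 0.000334).

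Among the remaining carriers, SLC36A2 is a high-affinity carrier of glycine and proline known from kidney. SLC36A2 had 0.467, 0.377 and 0.3202 FPKM with VD3 and 3.98, 3.24 and 2.27 FPKM with VPA. It had 0.558, 0.723 and 0.593 FPKM with both compounds, against 0.327, 0.243 and 0.132 FPKM in Control. The VPA libraries lay above all others by a wide margin and spread widely among themselves. They hold 1369 fragments against 120 in Control, a ratio of levels of 13.9. The log2 difference was 1.74 for VPA over Control and -1.34 for both compounds over VPA, values that the filter helped to fix. Its small rise with both against Control (log2 fold change 0.40, SE 0.128, adjusted p = 0.0172) was not called without Control replicate 3 (adjusted p = 0.0630) or VD3VPA replicate 2 (adjusted p = 0.0593). SLC38A6, a relative with poorly known substrates, had 1.24 ± 0.165 FPKM with VD3, 3.08 ± 0.223 FPKM with VPA, 1.84 ± 0.1204 FPKM with both and 1.26 ± 0.0881 FPKM in Control and rose with VPA (log2 fold change 0.85, SE 0.0668, adjusted p = 1.65e-06). SLC38A10, another such relative, had 25.1 ± 1.96 FPKM with VD3, 27.5 ± 0.501 FPKM with VPA, 24.7 ± 0.722 FPKM with both and 31.5 ± 0.9599 FPKM in Control and fell in all 3 treated groups against Control. Its log2 fold changes were -0.32 with VD3, -0.19 with VPA and -0.34 with both.

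The interaction asks whether the effect of VD3 in the presence of VPA differed from its effect without VPA, as the log2 change VD3VPA over VPA minus the log2 change VD3 over Control. It was called for 27 of the 37 carriers, 7 above and 20 below 0, where 44.3% of all genes were called (19% above and 25.3% below). The median was -0.30 over the carriers and -0.01 over all genes. With each library scaled to its own total, the medians were -0.18 and 0.11 and the calls 10 above and 17 below 0. The most negative was SLC43A2 (-2.53, SE 0.141, adjusted p = 1.23e-06), and SLC6A4 (-1.56, SE 0.1401, adjusted p = 1.2e-05), SLC15A1 (-1.33, SE 0.132, adjusted p = 2.29e-05), SLC7A8 (-1.28, SE 0.118, adjusted p = 1.45e-05), SLC7A9 (-1.22, SE 0.0958, adjusted p = 5.7e-06) and SLC7A7 (-1.07, SE 0.117, adjusted p = 4.17e-05) also lay below -1. The value of SLC36A2 was -1.51, given with no test since it passed the filter only through VPA. In these carriers the level with both compounds lay below the sum of the separate changes on the log2 scale. The most positive was SLC6A11 (2.30, SE 0.256, adjusted p = 4.63e-05), followed by SLC1A5 (1.37, SE 0.206, adjusted p = 0.000334), SLC43A1 (1.20, SE 0.117, adjusted p = 2.02e-05) and SLC7A2 (1.11, SE 0.159, adjusted p = 0.0002495), where it lay above that sum. For SLC1A1 the interaction was negative (-0.78, SE 0.0702, adjusted p = 1.2e-05) although it rose with VD3, with VPA and with both, by 0.79, 0.94 and 0.95 on the log2 scale.

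**Figure D4:**
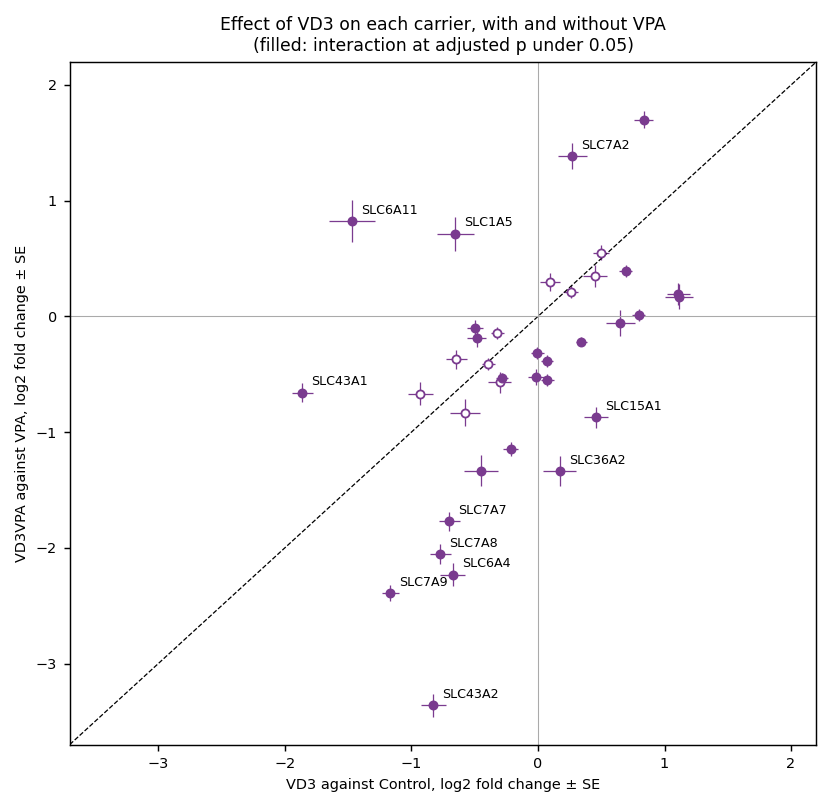
Change with VD3 in the absence of VPA (horizontal axis, VD3 against Control) and in its presence (vertical axis, VD3VPA against VPA), both in log2(FPKM + 1), with 1 point per tested carrier and a diagonal where both are equal. SLC43A2 lies far below the diagonal at -0.83 and -3.36, and SLC6A11 lies above it at -1.47 and 0.82.

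Proteins that carriers depend on were followed as a list of 9 genes, all tested. With VD3 2 rose and none fell, with VPA 5 rose and none fell, and with both 4 rose and 2 fell, against Control, where 62.5%, 52.7% and 64.2% of all genes were called. PDZK1, a brush border scaffold, rose in all 3 treated groups, by 0.75, 0.84 and 1.39 on the log2 scale. SLC9A3, the sodium and proton exchanger that sustains the proton gradient for SLC15A1, passed in none of the 3 comparisons with Control, at 5.02 ± 0.913 FPKM with VD3, 5.55 ± 0.433 FPKM with VPA, 5.402 ± 0.228 FPKM with both and 5.48 ± 0.464 FPKM in Control. SLC16A10, a basolateral uniporter of aromatic amino acids outside these families, had 1.82 ± 0.344 FPKM with VD3, 4.54 ± 0.502 FPKM with VPA, 3.49 ± 0.171 FPKM with both and 2.39 ± 0.518 FPKM in Control.

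Peptidases of the brush border and cytosol release the peptides and amino acids that these carriers take up, and 17 of 20 were tested. With VD3 6 rose and 7 fell, with VPA 11 rose and none fell, and with both 4 rose and 11 fell, against Control. The shares of all genes called were 62.5%, 52.7% and 64.2% in that order. When VD3 was added to VPA, 2 rose and 14 fell, where 63.3% of all genes were called. DPEP1, a membrane dipeptidase, had 74.8 ± 10.6 FPKM with VD3, 163 ± 9.95 FPKM with VPA, 39.6 ± 0.377 FPKM with both and 88.5 ± 10.6 FPKM in Control. CNDP2, a cytosolic dipeptidase, had 12.4 ± 0.424 FPKM with VD3, 31.04 ± 1.57 FPKM with VPA, 10.97 ± 0.284 FPKM with both and 22.5 ± 2.81 FPKM in Control. Both were lower with both compounds than with VPA alone (log2 fold change -2.01 for DPEP1 and -1.42 for CNDP2). ENPEP, an aminopeptidase for acidic residues, rose with VPA (log2 fold change 2.06, SE 0.0796, adjusted p = 2.66e-08), and DPP4, which releases dipeptides with proline, rose with VD3 alone (log2 fold change 0.92, SE 0.0796, adjusted p = 1.63e-06) and was lower with both compounds than with VD3 (log2 fold change -1.22, SE 0.0796, adjusted p = 2.69e-06).

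Of 20 genes that serve ATF4 or the response to amino acid supply, 17 were tested, and they changed in both directions. With VD3 6 rose and 6 fell, with VPA 6 rose and 7 fell, and with both 7 rose and 7 fell, against Control. Called in all were 70.6%, 76.5% and 82.4% of the list and 62.5%, 52.7% and 64.2% of all genes. ATF4 itself had 125 ± 4.45 FPKM with VD3, 123 ± 5.40 FPKM with VPA, 115 ± 6.61 FPKM with both and 130.4 ± 8.23 FPKM in Control. It did not pass with VD3 or with VPA, and it was lower with both compounds than in Control (log2 fold change -0.18, SE 0.0593, adjusted p = 0.0181). PYCR1, the last enzyme of proline synthesis, fell with VD3 (log2 fold change -1.61, SE 0.1305, adjusted p = 9.15e-07), with VPA (log2 fold change -1.39, SE 0.1305, adjusted p = 6.15e-06) and with both (log2 fold change -1.68, SE 0.1305, adjusted p = 5.35e-07). CHAC1, which breaks down glutathione, rose with VD3 (log2 fold change 0.77, SE 0.0673, adjusted p = 1.75e-06) and fell with VPA (log2 fold change -0.71, SE 0.0673, adjusted p = 6.46e-06). DDIT4, an inhibitor of mTORC1 that many stresses induce, rose with VD3 (log2 fold change 2.03, SE 0.0685, adjusted p = 1.23e-09) and with both (log2 fold change 2.35, SE 0.0685, adjusted p = 2.03e-10). Of the 6 carriers printed above with CARE letters, SLC1A4, SLC1A5 and SLC7A1 fell in all 3 treated groups against Control, SLC1A3 did not fall in any, and SLC3A2 and SLC38A1 fell with VD3 and with both but not with VPA.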

How the data were processed

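RNA was measured in 12 libraries, 3 in each of the 4 groups, which were taken from the sample titles. The labels' protocols give poly-A selection and a NEBNext Ultra kit. The build GRCh38.p13 and the tools DESeq2 1.20.0, featureCounts 1.5.0-p3 and HISAT2 2.0.5 are named in the submitters' processing notes, without their roles, and the strand setting is not stated. The authors deposited a table of FPKM values for each gene and library with gene lengths, per the file headers. All 58735 genes have the identifier and the coordinates of GENCODE release 29.

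Multiplied by gene length and by a constant for its library, 100% of the FPKM values came within 0.01 of a whole number of fragments. These recovered fragments served for depth, a counting interval and 1 alternative test. Fragments from PCR without molecular identifiers are not independent molecules.

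The 12578 genes that reached 1 FPKM in 3 or more libraries were tested on log2(FPKM + 1) with 1 mean per group in limma 3.58.1 (R 4.3.3), with a trended prior and 8 residual degrees of freedom. P-values were adjusted by Benjamini-Hochberg over all tested genes within each of 6 comparisons, and a call needed an adjusted p under 0.05. The median SE was 0.0658 for a pair of groups and 0.0931 for the interaction. Fold ratios are of group mean FPKM. The test was also run on simulated fragments, with few genes changed and only in the VD3 group. That setting is unlike these data and its outcome is not given, so it is no check of the calls here. Figures used Python 3.11.15, pandas 2.3.3 and matplotlib 3.10.9.

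The carriers, their roles, the other gene lists and the cell type markers were chosen with earlier results of these data known. One gene of these lists is not reported here and was left out of its list's counts. Carriers were named from a fixed list of 23, plus, in each comparison, the 5 largest rises and the 5 largest falls among called carriers whose groups did not overlap (for the interaction, the 5 largest each way), which gave 31. For the other lists the rule was the 3 smallest adjusted p-values in each comparison. Other carriers, and other genes named with a value, were chosen after their values were seen. Alternatives changed the pseudocount, filter, scaling, prior, groups fitted and replicate block, used voom on recovered fragments, or left out each library in turn. Promoter sequences are from RefSeq (GRCh38.p14), while gene coordinates are those of the deposited table.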

Additional observations from a re-analysis of the deposited data

Results flagged for a closer look

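For 24 of the 30 named carriers that were tested, the effect of VD3 differed between cultures with and without VPA, by the test of the interaction in limma (adjusted p under 0.05 over all genes, of which 44.3% passed). Below 0, meaning that the change with VD3 was more negative when VPA was present, were SLC43A2 at -2.53, SLC6A4 at -1.56, SLC36A2 at -1.51, SLC15A1 at -1.33, SLC7A8 at -1.28, SLC7A9 at -1.22 and SLC7A7 at -1.07. Smaller negative values were found for SLC7A4 (-0.94), SLC3A2 (-0.93), SLC38A3 (-0.92), SLC6A19 (-0.88), SLC1A1 (-0.78), SLC36A1 (-0.71), SLC7A6 (-0.62), SLC38A6 (-0.51), SLC6A6 (-0.46) and SLC38A2 (-0.30). Above 0 were SLC6A11 at 2.30, SLC1A5 at 1.37, SLC43A1 at 1.20, SLC7A2 at 1.11, SLC6A12 at 0.87, SLC7A1 at 0.40 and SLC1A4 at 0.30. SLC36A2 passed the filter on low levels only through the VPA libraries and SLC6A12 only with the VD3VPA libraries, so their values are partly fixed by that filter. Both are given as values with no test, although the count of 24 includes them. The calls of SLC38A2 and SLC1A4 were lost under other scalings. All are differences of log2 fold changes on the log2(FPKM + 1) scale, between 3 libraries per group. With 3 libraries per group, single libraries were not screened as outliers.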

How the results depend on the processing

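Of the 31 named carriers 30 were tested, and none of these changed direction in a called result under any alternative run. Of the results recomputed for them, 3578 kept their side of the threshold, 58 lost the call and 30 gained it. With at least 5 FPKM required in at least 3 libraries, 20 carriers were tested, and the counts became 6 higher and 11 lower with VD3, 13 higher and 4 lower with VPA, 6 higher and 11 lower with both (all against Control), 4 higher and 8 lower for both against VD3, 6 higher and 12 lower for both against VPA, and 2 above and 13 below 0 for the interaction. When 1 library was left out in turn, the carriers higher and lower ranged from 11 to 13 and 18 to 19 with VD3, 17 to 18 and 9 to 10 with VPA, and 12 to 14 and 20 (in every fit) with both. They ranged from 5 to 8 and 13 to 15 for both against VD3, 9 to 10 and 21 to 23 for both against VPA, and 6 to 8 and 20 to 21 for the interaction. SLC1A4 lost its call for both against VPA and for the interaction in most of these fits, with adjusted p up to 0.138 and 0.0894. For both against VD3, SLC1A1 (adjusted p 0.0633 to 0.0911), SLC7A6 (0.0634 to 0.106) and SLC6A6 (0.0578 to 0.0790) lost theirs when certain single libraries were left out. The interaction of SLC38A2 lost its call under own-total scaling (-0.15, adjusted p = 0.139) and quantile normalization (-0.17, adjusted p = 0.109), and that of SLC1A4 under quantile normalization (adjusted p = 0.143). The causes were not tested. A fit with only the groups compared gives no interaction.

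Replicate numbers showed no clear pairing of the libraries. Deviations from the group means correlated at -0.08 to 0.15 between libraries with the same number (18 pairs, median 0.02). Between different numbers they correlated at -0.19 to 0.11 (36 pairs, median -0.02). The pairs share libraries and the labels are silent, so a weak pairing cannot be told from none. With the replicate block, 11 carriers were higher and 19 lower with VD3, 17 and 9 with VPA, 14 and 20 with both, 7 and 14 for both against VD3, 9 and 23 for both against VPA, and 7 and 20 for the interaction. Depth limits the carriers under 1 FPKM, such as SLC6A12 in Control with 22 fragments in 3 libraries.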

Other observations

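Genes of amino acid sensing by the growth kinase complex mTORC1, which reads amino acids at the lysosome, were followed as a list of 21, of which 19 were tested. With VD3 3 rose and 11 fell, with VPA 10 rose and 1 fell, and with both 4 rose and 7 fell, all against the same Control libraries. Called in all were 73.7%, 57.9% and 57.9% of the list, against 62.5%, 52.7% and 64.2% of all genes. When VD3 was added to VPA, 13 fell and 6 did not pass, where 63.3% of all genes were called. RRAGD, a GTPase that recruits mTORC1 to the lysosome, had 3.47 ± 0.346 FPKM with VD3, 10.2 ± 0.463 FPKM with VPA, 4.93 ± 0.2805 FPKM with both and 4.43 ± 0.36001 FPKM in Control. It rose with VPA (log2 fold change 1.04, SE 0.0667, adjusted p = 4.35e-07) and was lower with both compounds than with VPA alone (log2 fold change -0.91, SE 0.0667, adjusted p = 3.17e-07). LAMTOR1, the lysosomal anchor of these GTPases, had 37.5 ± 0.803 FPKM with VD3, 47.8 ± 1.81 FPKM with VPA, 33.7 ± 0.125 FPKM with both and 43.3 ± 3.45 FPKM in Control, and was also lower with both than with VPA (log2 fold change -0.49, SE 0.0535, adjusted p = 8.76e-06). MTOR itself had 4.27 ± 0.164 FPKM with VD3, 4.45 ± 0.269 FPKM with VPA, 3.75 ± 0.139 FPKM with both and 4.47 ± 0.124 FPKM in Control.

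Of 11 genes for glutathione synthesis and its regulation, which use the cystine that SLC7A11 and SLC7A9 bring in, all were tested. With VD3 3 rose and 4 fell, with VPA 4 rose and 5 fell, and with both 2 rose and 6 fell, against Control. Called in all were 63.6%, 81.8% and 72.7% of the list, against 62.5%, 52.7% and 64.2% of all genes. GCLM, the modifier subunit of the first enzyme of glutathione synthesis, had 8.35 ± 0.253 FPKM with VD3, 7.03 ± 0.514 FPKM with VPA, 8.37 ± 0.308 FPKM with both and 5.09 ± 0.309 FPKM in Control, and rose with VD3 (log2 fold change 0.62, SE 0.0551, adjusted p = 1.92e-06), with VPA (log2 fold change 0.40, SE 0.0551, adjusted p = 0.000106) and with both (log2 fold change 0.62, SE 0.0551, adjusted p = 1.51e-06). HMOX1, a target of the antioxidant factor NRF2, rose with VPA (log2 fold change 1.05, SE 0.0625, adjusted p = 3.23e-07) and was lower with both than with VPA alone (log2 fold change -0.55, SE 0.0625, adjusted p = 1.26e-05). GGCT, which breaks down gamma-glutamyl peptides, fell with VD3 (log2 fold change -0.82, SE 0.0669, adjusted p = 1.03e-06) and with both (log2 fold change -0.76, SE 0.0669, adjusted p = 1.46e-06).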
